A study of Mus musculus with 8 samples.

Results

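The interferon-induced transmembrane (IFITM) family was followed on 8 arrays of total brain RNA from MOG-immunized mice. The family was taken by gene name, as 7 listed genes, and 6 of them (Ifitm1, Ifitm2, Ifitm3, Ifitm5, Ifitm6 and Ifitm10) had a value among the 22180 genes of the deposited table. Ifitm7 was dropped because both of its probe sets carry a second gene symbol. The family was selected on measured values, those of the wild-type comparison of NDP-MSH with PBS, in which Ifitm2 had been seen as the only gene that rose. The wild-type values below are a description and are not used as a test.

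IFITM proteins are small membrane proteins that sit in the plasma membrane and in endosomes. Interferons induce several of them, and Ifitm3 in particular stiffens endosomal membranes so that enveloped viruses fail to fuse with them. Most of the mouse family lies in 1 cluster on chromosome 7, in the order Ifitm5, Ifitm2, Ifitm1, Ifitm3 and Ifitm6, with Ifitm10 farther along that chromosome and Ifitm7 on chromosome 16. In brain, IFITM transcripts are known mainly from endothelial cells, border tissues and immune cells, and rise in inflamed tissue.

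All mice carried an immunization against MOG, a glycoprotein of oligodendrocytes, which starts an autoimmune attack on central nervous myelin, and brains were taken on day 14, at the peak of disease. Wild-type mice had a black coat, and the C57BL/6Je/e mice (e/e below) had a yellow coat, the mark of an inactive Mc1r, the melanocortin receptor of pigment cells. Each genotype was given buffered saline (PBS) as control, or the peptide NDP-MSH, a stable analog of alpha-MSH that activates melanocortin receptors. It was given into a vein on days 8, 10 and 12, each time 5 µg for each mouse. This makes 4 groups of 2 arrays, PBS and NDP-MSH in each genotype, and all 8 samples were MOG-immunized, so no unimmunized level was measured. Genotype was read from coat colour, and the labels give neither age nor sex and do not say that replicates were separate animals, so errors cover only the spread between these samples.

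Values are log2 values as deposited, with base 2 assumed, and each gene is centred on its median over the 8 arrays. They show differences between arrays, and levels cannot be compared between genes. A coarse bracket of the signal before centring could still be read from the numerical step of the values: Ifitm3 lay at a log2 signal of 8 or above, and the other 5 members lay below 8 on at least 1 array. For comparison, 8 of 8 oligodendrocyte and 7 of 8 astrocyte markers were also at 8 or above, against 29.5% of all genes. In the other gene lists used below this share ran from 0% to 84.6%. Signals of different probe sets have different scales, so the bracket gives no order of abundance among genes or cell types. Differences are given ± SE from a limma fit over all genes and all 8 arrays (2 arrays a group). With 2 arrays against 2, an exact permutation test of a single gene cannot give a two-sided p below 0.333.

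Some arrays stood apart in transcripts of other tissue or of sex. Cerebellar markers had a list median of -1.81 and -1.67 on both wild-type arrays of NDP-MSH and between -0.11 and 0.34 in the other 6. Anterior pituitary markers had a median of 2.31 in wild-type NDP-MSH 1 and between -0.07 and 0.05 elsewhere. The Y-linked gene Eif2s3y had a value of 2.04 in e/e PBS 2, and the e/e NDP-MSH arrays had 2.78 and 2.87, against -0.19 to 0.02 in the other 5. Xist was low in the e/e NDP-MSH arrays, with -4.46 and -4.56, and stood at -0.82 or above in the others. The e/e NDP-MSH arrays thus shared low Xist and high Y-linked signal that neither e/e PBS array showed in full, and in the e/e comparison this cannot be told apart from NDP-MSH. The Mc1r transcript itself differed by 0.04 ± 0.09 between e/e and wild-type mice under PBS, which is no check of the genotype, since the e allele is a change in the coding sequence. Probe sets of close relatives such as Ifitm2 and Ifitm3 can share signal, which was not tested.

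Of the listed genes, only Ifitm2 and Ifitm3 had an interferon response motif of the ISRE type in the promoter windows searched. RefSeq promoter windows (GRCm38.p6, 250 bases before to 50 bases after each annotated start) were found for all 7 listed genes. They were searched on both strands for an interferon-stimulated response element made of GAAA, any 2 bases and GAAA (ISRE-type), for a gamma-activated site of the form TTCNNNGAA (GAS-type) and for the cAMP response element TGACGTCA (CRE). The 100 bases before the start are shown for the 5 genes of the chromosome 7 cluster, since these neighbours differ in their values, together with the first 30 bases of the Ifitm3 transcript. Capitals mark ISRE-type matches.
Ifitm2 before the start (chr7:140955962-140956061, minus strand): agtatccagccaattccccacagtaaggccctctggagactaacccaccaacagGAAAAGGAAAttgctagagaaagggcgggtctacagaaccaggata
Ifitm3 before the start (chr7:141010745-141010844, minus strand): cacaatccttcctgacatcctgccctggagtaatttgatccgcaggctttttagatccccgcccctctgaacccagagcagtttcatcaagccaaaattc
Ifitm3 from the start (chr7:141010715-141010744, minus strand): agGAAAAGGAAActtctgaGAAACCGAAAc
Ifitm1 before the start (chr7:140967976-140968075, plus strand): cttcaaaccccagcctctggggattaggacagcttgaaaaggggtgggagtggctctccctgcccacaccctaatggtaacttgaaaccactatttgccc
Ifitm5 before the start (chr7:140950244-140950343, minus strand): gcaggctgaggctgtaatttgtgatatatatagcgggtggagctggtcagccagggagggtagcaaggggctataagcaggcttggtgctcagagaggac
Ifitm6 before the start (chr7:141016893-141016992, minus strand): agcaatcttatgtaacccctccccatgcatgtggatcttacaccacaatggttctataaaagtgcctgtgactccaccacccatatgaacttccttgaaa

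Ifitm2 held 1 ISRE-type match, at positions -46 to -37, where -1 is the last base before the start. Ifitm3 held 2, at positions 3 to 12 and 20 to 29 of the transcript, with a GAS-type match at 14 to 22 that overlaps the second of them. The first Ifitm3 match and the Ifitm2 match lie in a shared run of 13 bases, CAGGAAAAGGAAA, the longest run that the windows of both genes have in common. Ifitm6 held a GAS-type match at -10 to -2, and the windows of Ifitm1, Ifitm5, Ifitm7 and Ifitm10 held none of the 3 motifs. Of all 32851 promoter windows in the table, 3.44% held an ISRE-type match, 8.3% a GAS-type match and 1.79% a CRE. A match describes letters only, and binding was not measured here.

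**Figure D1:**
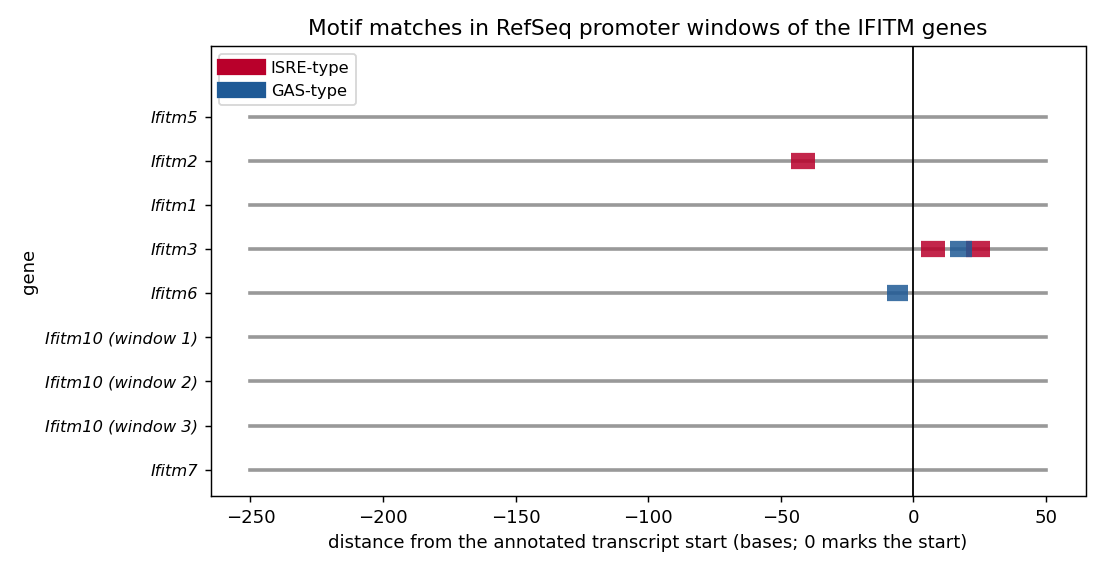
Positions of ISRE-type (red) and GAS-type (blue) matches in the promoter windows of the 7 listed IFITM genes, with distance from the annotated start in bases on the horizontal axis and 1 line per window (Ifitm10 has 3). Ifitm2 has 1 ISRE-type match and Ifitm3 has 2, and the lines of Ifitm1, Ifitm5, Ifitm7 and Ifitm10 are empty.

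Ifitm2 encodes a close relative of Ifitm3 that is also found in endosomes. In wild-type mice its values were -0.06 and -0.38 under PBS and 0.79 and 0.83 under NDP-MSH, and in e/e mice 0.06 and 0.22 under PBS and -0.33 and -0.55 under NDP-MSH. The wild-type NDP-MSH arrays were the highest of the 8, and the NDP-MSH and PBS arrays did not overlap in either genotype, on opposite sides. Its range over the 8 arrays was 1.38, larger than that of 98.6% of genes.

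Ifitm3, the main antiviral member, had the widest range of the family, 1.97, larger than that of 99.4% of genes (median over all genes 0.33). In wild-type mice it lay at -0.18 and 0.18 under PBS and 0.60 and 0.67 under NDP-MSH, and in e/e mice at -0.94 and 0.28 under PBS and -1.24 and -1.30 under NDP-MSH. Both NDP-MSH groups were tight, and the e/e PBS arrays lay 1.22 apart. e/e PBS 1 was near the e/e NDP-MSH arrays, and e/e PBS 2 was above both wild-type PBS arrays.

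Ifitm6, a member about which less is known, had wild-type values of -0.17 and 0.02 under PBS and 0.37 and 0.30 under NDP-MSH. Its e/e values were -0.09 and 0.11 under PBS and -0.02 and -0.09 under NDP-MSH. It was thus high in the wild-type NDP-MSH arrays alone, and the e/e groups overlapped.

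Ifitm1, the plasma membrane member that associates with the tetraspanin Cd81, varied little, with a range of 0.37. Its wild-type values were -0.01 and -0.05 under PBS and 0.08 and 0.11 under NDP-MSH, and its e/e values were -0.18 and 0.04 under PBS and -0.26 and 0.01 under NDP-MSH. The wild-type groups did not overlap, and the distance between them was smaller than that between the arrays of either e/e group.

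Ifitm5, also called Bril, is a bone protein of mineralizing osteoblasts. It lay between -0.19 and 0.12 over the 8 arrays, a range of 0.32 near the median gene, and both extremes were e/e NDP-MSH arrays. Ifitm10, a member without a well-known role, had wild-type values of -0.11 and 0.08 under PBS and -0.17 and -0.02 under NDP-MSH, and e/e values of 0.02 and -0.25 under PBS and 0.26 and 0.03 under NDP-MSH. For both genes the wild-type groups overlapped, and in e/e mice only those of Ifitm5 did.

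**Figure D2:**
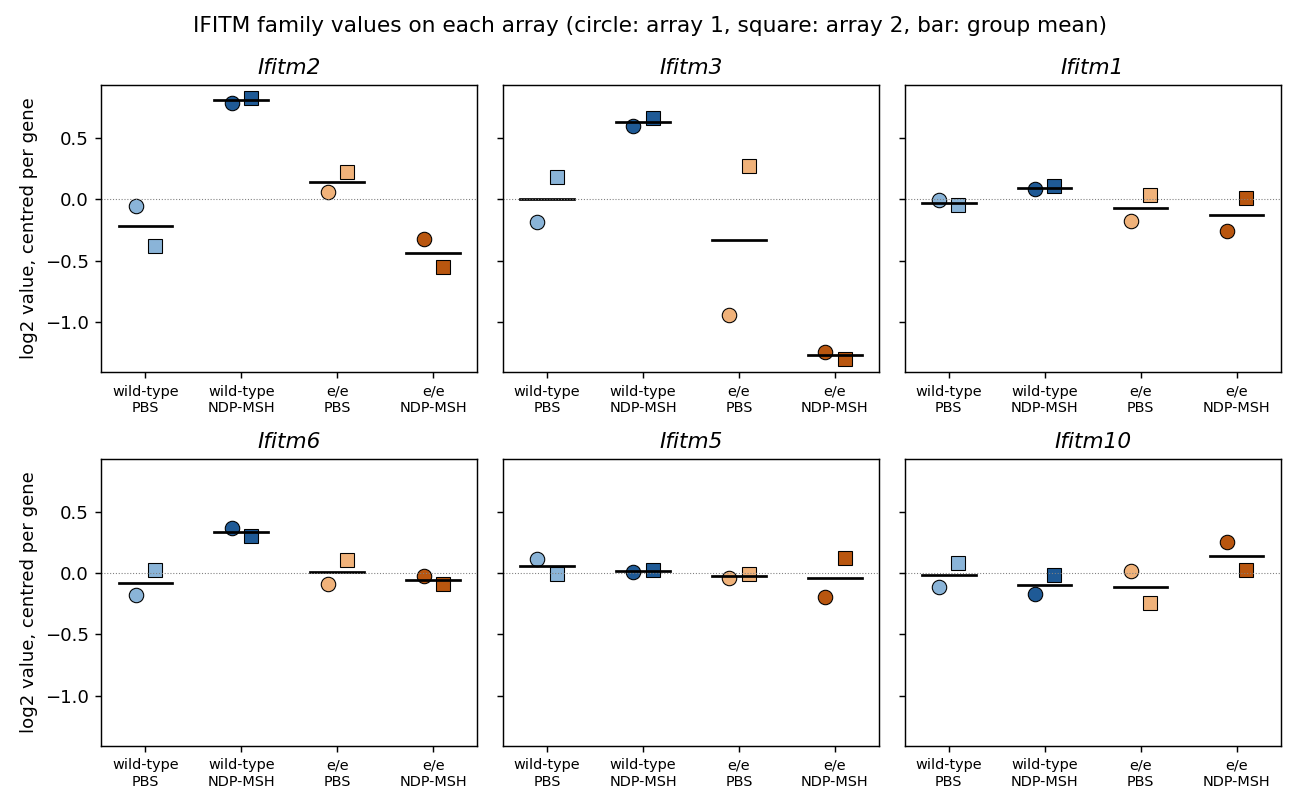
Centred log2 values (vertical axis) of the 6 measured IFITM genes on each array, by group, with circles for array 1, squares for array 2 and a bar at the group mean. By group mean, Ifitm2 and Ifitm3 are highest in wild-type NDP-MSH and lowest in e/e NDP-MSH. The e/e PBS arrays of Ifitm3 lie 1.22 apart.

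The first of the study's comparisons, in wild-type mice, addresses the response of brain transcripts to NDP-MSH where Mc1r works. Ifitm2 was higher after NDP-MSH by 1.02 ± 0.13, or 2.03-fold, Ifitm3 by 0.63 ± 0.34, or 1.55-fold, and Ifitm6 by 0.41 ± 0.10, or 1.33-fold. Ifitm1 differed by 0.12 ± 0.11, Ifitm5 by -0.04 ± 0.11 and Ifitm10 by -0.08 ± 0.13. Among 22180 genes Ifitm2 ranked 9th by size of the increase, Ifitm3 ranked 77th and Ifitm6 ranked 474th.

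Of the 6 members, 1 (Ifitm2) was past an adjusted p of 0.05 in this fit (limma, Benjamini-Hochberg over all genes), where 0.00451% of genes were called higher and 0.171% lower. This is the value for which the family was chosen, and nothing is read from it. The groups did not overlap, with NDP-MSH higher, for 4 of 6 members and for 25.3% of all genes. The median of the 6 differences was 0.27, against 0.02 over all genes.

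The wild-type values came from the arrays with low cerebellar markers, where 10 of 10 such genes were lower and 7 fell past the threshold. Both wild-type NDP-MSH arrays shared this. The median of 4 olfactory bulb markers was -0.0034 and 0.33 in the same arrays, against -0.11 to 0.04 elsewhere, and among them Cdhr1 lay at 0.49 and 2.23, Eomes at -0.66 and 0.33 and Tbx21 at -0.01 and 0.29. Pituitary markers were high on 1 of these arrays, wild-type NDP-MSH 1, and without it the Ifitm2 difference was 1.04 and no longer passed (limma, adjusted p = 0.127). The part of cerebellar, olfactory and pituitary tissue in the Ifitm2 value was not tested. The Ifitm2 call ended without any 1 of the 4 wild-type arrays, with differences between 0.86 and 1.18, and without either e/e NDP-MSH array.

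Cell types that could carry IFITM transcripts were checked through marker lists in these same arrays, since in bulk tissue fewer cells of a type and less RNA per cell cannot be told apart. Over all genes 55.0% were higher after NDP-MSH in wild-type mice. Of 12 endothelium markers 7 were higher after NDP-MSH (median 0.09, range -0.52 to 0.25), with 4 not overlapping upward and 2 downward, against 25.3% and 18.9% of all genes. Their list medians were 0.16 and -0.03 in the NDP-MSH arrays and 0.01 and -0.05 under PBS. Neutrophil markers were higher for 7 of 12 (median 0.12), with list medians of 0.27 and -0.03 against 0.14 and -0.13. Monocyte and macrophage markers were higher for 7 of 13 (median 0.19), with list medians of 0.52 and 0.18 against 0.04 and 0.47. In each of these 3 lists the list medians of the groups overlapped and no gene passed the threshold, and their part in the Ifitm2 value was not tested. Levels near 0 cannot be read from centred values, so absence of a marker could not be checked.

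Other cell types gave no call, and their counts stand beside 55.0% of all genes that were higher after NDP-MSH. After NDP-MSH 10 of 10 meningeal fibroblast markers (median 0.09), 7 of 8 homeostatic microglia markers (median 0.12) and 7 of 8 T cell markers (median 0.09) were higher, as were 5 of 9 pericyte and smooth muscle markers (median 0.01) and 4 of 6 osteoblast markers (median 0.02). All 8 oligodendrocyte markers (median -0.30) and 7 of 7 choroid plexus markers (median -0.29) were lower, with 6 of 8 astrocyte markers (median -0.10) and 4 of 6 B cell markers (median -0.11). For 8 of 8 oligodendrocyte markers the groups did not overlap downward, against 18.9% of all genes. All 8 stayed lower whichever wild-type array was left out. The choroid plexus count depended on 1 array, since without wild-type NDP-MSH 1 6 of 7 markers were higher (median 0.08). Without the same array 3 of 8 T cell markers were higher and 5 lower (median -0.08). The part of these cells in the IFITM values was not tested.

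The second comparison, in e/e mice, addresses the same response where Mc1r is inactive. Ifitm3 was lower after NDP-MSH by 0.94 on the log2 scale (-0.94 ± 0.34, 95% interval -1.72 to -0.15) and Ifitm2 by 0.58 (-0.58 ± 0.13, interval -0.88 to -0.28). As folds, PBS exceeded NDP-MSH 1.92-fold for Ifitm3 and 1.49-fold for Ifitm2. Neither passed (limma, adjusted p = 1 for both, unadjusted p = 0.0253 and 0.00237), nor did any other gene. The difference was 0.26 ± 0.13 for Ifitm10, -0.07 ± 0.10 for Ifitm6, -0.05 ± 0.11 for Ifitm1 and -0.01 ± 0.11 for Ifitm5, also with adjusted p = 1. The intervals of these 4 reach from -0.31 at the lowest to 0.56 at the highest.

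By this fit 0 of 6 members were called in e/e mice, as were 0% of all genes, and 2 of 6 members had an unadjusted p under 0.05, against 3.56% of genes. NDP-MSH arrays lay below both PBS arrays for 2 of 6 members, Ifitm2 and Ifitm3, and for 14.3% of genes, and above them for 1 of 6, Ifitm10, and for 16% of genes. Ranked from the largest increase, Ifitm3 stood at 22093 and Ifitm2 at 21980 of 22180 genes, near the low end.

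The Ifitm3 difference in e/e mice depended on which PBS array was used. Without e/e PBS 1 it was -1.55 ± 0.15 and passed the threshold (limma, adjusted p = 0.0295), and without e/e PBS 2 it was -0.33 ± 0.15 (adjusted p = 1). Ifitm2 kept closer values, -0.66 and -0.49 under the same omissions. The array with high Ifitm3, e/e PBS 2, was also the PBS array with Y-linked signal, which the low e/e NDP-MSH arrays carried too, while e/e PBS 1 had low Ifitm3 without it. A sex-linked part in the difference was not tested.

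**Figure D3:**
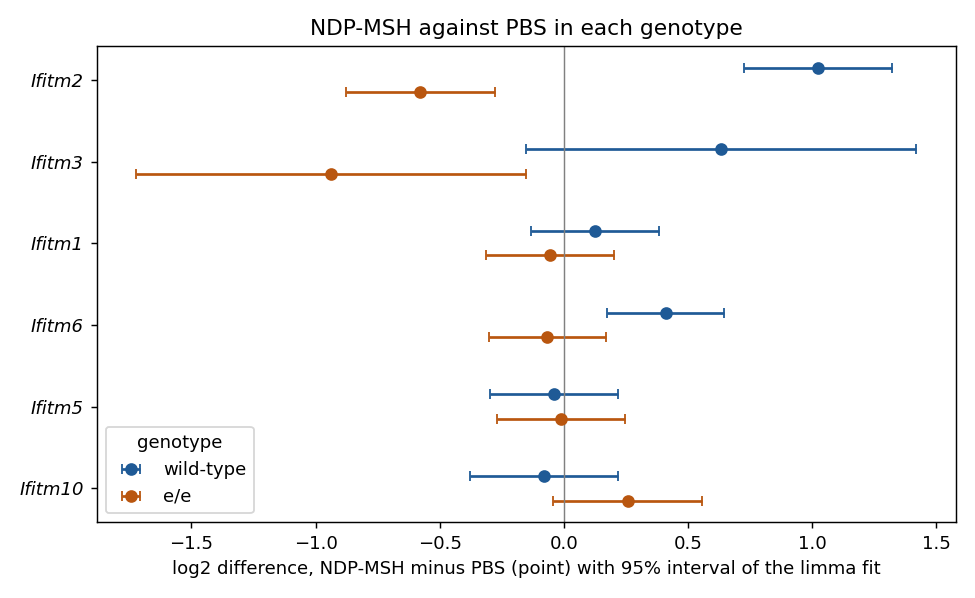
Log2 difference, NDP-MSH minus PBS, of each IFITM gene in wild-type (blue) and e/e (orange) mice, with points for the limma estimates and lines for their 95% intervals. For Ifitm2 the wild-type estimate is 1.02 and the e/e estimate -0.58, and for Ifitm1, Ifitm5 and Ifitm10 the intervals of both genotypes hold 0.

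The effects in the genotypes were compared as a difference of differences, wild-type minus e/e, which contains the wild-type arrays for which the family was chosen. It was 1.60 ± 0.18 for Ifitm2 and 1.57 ± 0.48 for Ifitm3, and neither passed over all genes (limma, adjusted p = 0.136 and 0.532). For Ifitm6 it was 0.48 ± 0.14, for Ifitm1 0.18 ± 0.16, for Ifitm5 -0.03 ± 0.16 and for Ifitm10 -0.34 ± 0.18 (adjusted p between 0.53 and 0.98). Of 22180 genes 0% passed in this comparison, and 7.71% had an unadjusted p under 0.05, as did 3 of the 6 members. NDP-MSH arrays above PBS in wild-type and below PBS in e/e were seen for 2 of 6 members and for 3.17% of genes. This comparison also contains the low cerebellar markers of wild-type NDP-MSH and the low Xist of e/e NDP-MSH. Neither can be told apart from the treatment here.

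**Figure D4:**
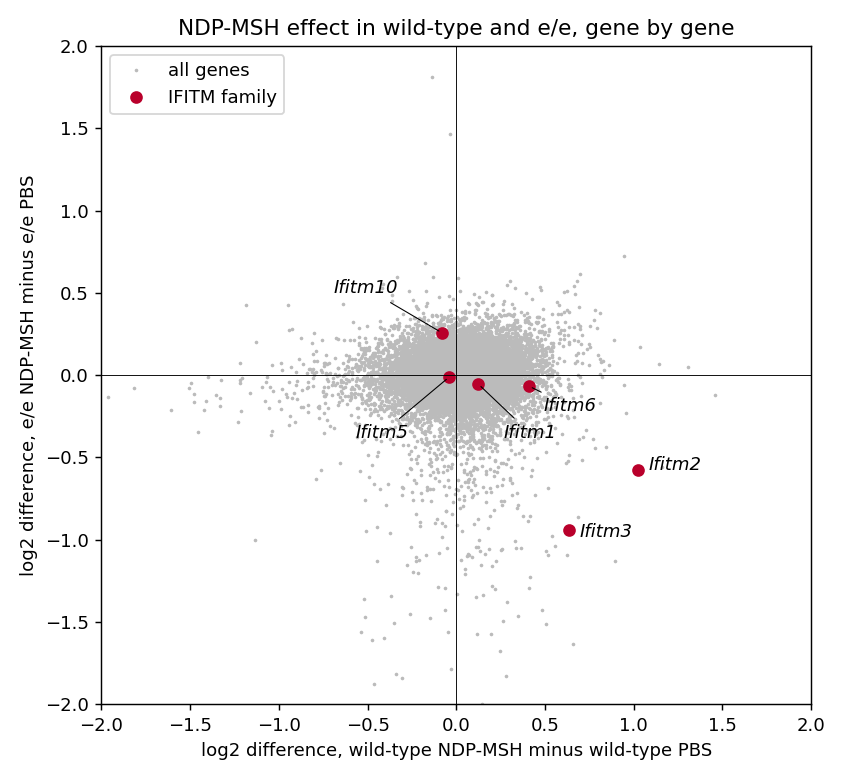
Log2 difference of each gene in wild-type (horizontal) against e/e (vertical), with all genes in grey and the 6 IFITM genes in red; 19 genes lie outside the plotted limits of -2 and 2. Ifitm2 and Ifitm3 lie to the lower right of the main cloud, at 1.02 and -0.58 and at 0.63 and -0.94, and Ifitm1 and Ifitm5 lie inside it.

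The comparison under PBS alone, e/e against wild-type, contains the wild-type PBS arrays, which were part of the comparison that chose the family. Its values are a description for that reason. Ifitm2 was the member with the clearest separation. It was higher by 0.36 ± 0.13 in e/e mice, with both e/e arrays above both wild-type arrays, and did not pass (limma, adjusted p = 0.971). That placement held for 1 of 6 members and for 17.4% of genes, and the opposite one for 0 of 6 members and 16.7% of genes. An unadjusted p under 0.05 was reached by 1 of 6 members and by 4.91% of genes. Ifitm3 differed by -0.33 ± 0.34, which became 0.28 when e/e PBS 1 was left out and -0.94 when the other e/e PBS array was. The other 4 members differed by -0.10 to 0.09, and 0% of all genes passed. The array e/e PBS 2 carried Y-linked signal (Eif2s3y 2.04, against 0.02 and -0.07 in wild-type PBS). Monocyte and macrophage markers were lower in e/e mice for 13 of 13 (median -0.45, 0 past the threshold). The part of either in these values was not tested.

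Interferon-stimulated genes are the wider set to which inducible IFITM genes belong, and they differed between arrays of the same PBS group. In the list of type I interferon-stimulated genes, the median of 26 genes in wild-type mice was -0.18 and 0.49 under PBS and 0.36 and 0.23 under NDP-MSH, and in e/e mice -0.66 and 0.55 under PBS and -0.69 and -0.80 under NDP-MSH. Thus wild-type PBS 2 and e/e PBS 2 were above the wild-type NDP-MSH arrays. Ifitm3 shared the order within each PBS pair, with array 2 above array 1 by 0.36 in wild-type and 1.22 in e/e mice, while Ifitm2 was lower in wild-type PBS 2 than in PBS 1 by 0.32.

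The interferon gamma-induced GTPases, which act on the vacuoles of intracellular pathogens, showed the same spread more strongly. The median of 11 genes in wild-type mice was -0.29 and 0.61 under PBS and 0.40 and 0.30 under NDP-MSH, and in e/e mice -1.58 and 0.68 under PBS and -1.87 on each NDP-MSH array. In wild-type mice 8 of 11 were higher after NDP-MSH (median 0.19), against 55.0% of all genes. The groups did not overlap for 0 of 11, against 25.3% of all genes upward and 18.9% downward. Irgm1 differed by -0.06, Iigp1 by -0.12 and Gbp3 by 0.20.

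Among the type I genes in wild-type mice, 23 of 26 were higher after NDP-MSH with a median of 0.15, 0 passed the threshold and the groups did not overlap upward for 6, a share close to the 25.3% of all genes. Ifit1, an RNA-binding antiviral protein, differed by 0.22, the ubiquitin-like Isg15 by 0.38 and Irf7, which drives interferon transcription, by 0.11. Without wild-type PBS 1 the list median turned to -0.20, with 19 of 26 lower, and without wild-type PBS 2 it was 0.40. Ifitm2 was higher after NDP-MSH in both cases, by 1.18 and 0.86.

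In e/e mice 26 of 26 type I genes and 11 of 11 GTPases were lower after NDP-MSH, with medians of -0.63 and -1.42, against 0.01 over all genes. None passed the threshold by limma, and 8 of 26 and 5 of 11 had an unadjusted p under 0.05, against 3.56% of all genes. Ifit1 differed by -1.30, Isg15 by -0.85, Irf7 by -1.35, Irgm1 by -1.42, Iigp1 by -2.63 and Gbp3 by -1.28. With e/e PBS 2 left out the medians became -0.16 and -0.30, and with e/e PBS 1 left out they were -1.18 and -2.55. Ifitm3 stood at -0.33 and -1.55 under the same omissions.

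Monocyte and macrophage markers moved with Ifitm3 in the e/e arrays. Their list median was -0.81 and 0.06 under PBS and -0.90 and -1.05 under NDP-MSH, and 12 of 13 were lower after NDP-MSH (median -0.68, 0 past the threshold). Ly6c2 of inflammatory monocytes differed by -0.89, the chemokine receptor gene Ccr2 by -0.68 and the lipopolysaccharide co-receptor gene Cd14 by -0.45. Neutrophil markers were lower for 10 of 12 (median -0.13) and T cell markers for 6 of 8 (median -0.25). Endothelium markers were lower for 6 of 12 (median 0.01), and over all genes 53.7% were higher in this comparison. The part of these cells in the Ifitm3 difference was not tested.

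**Figure D5:**
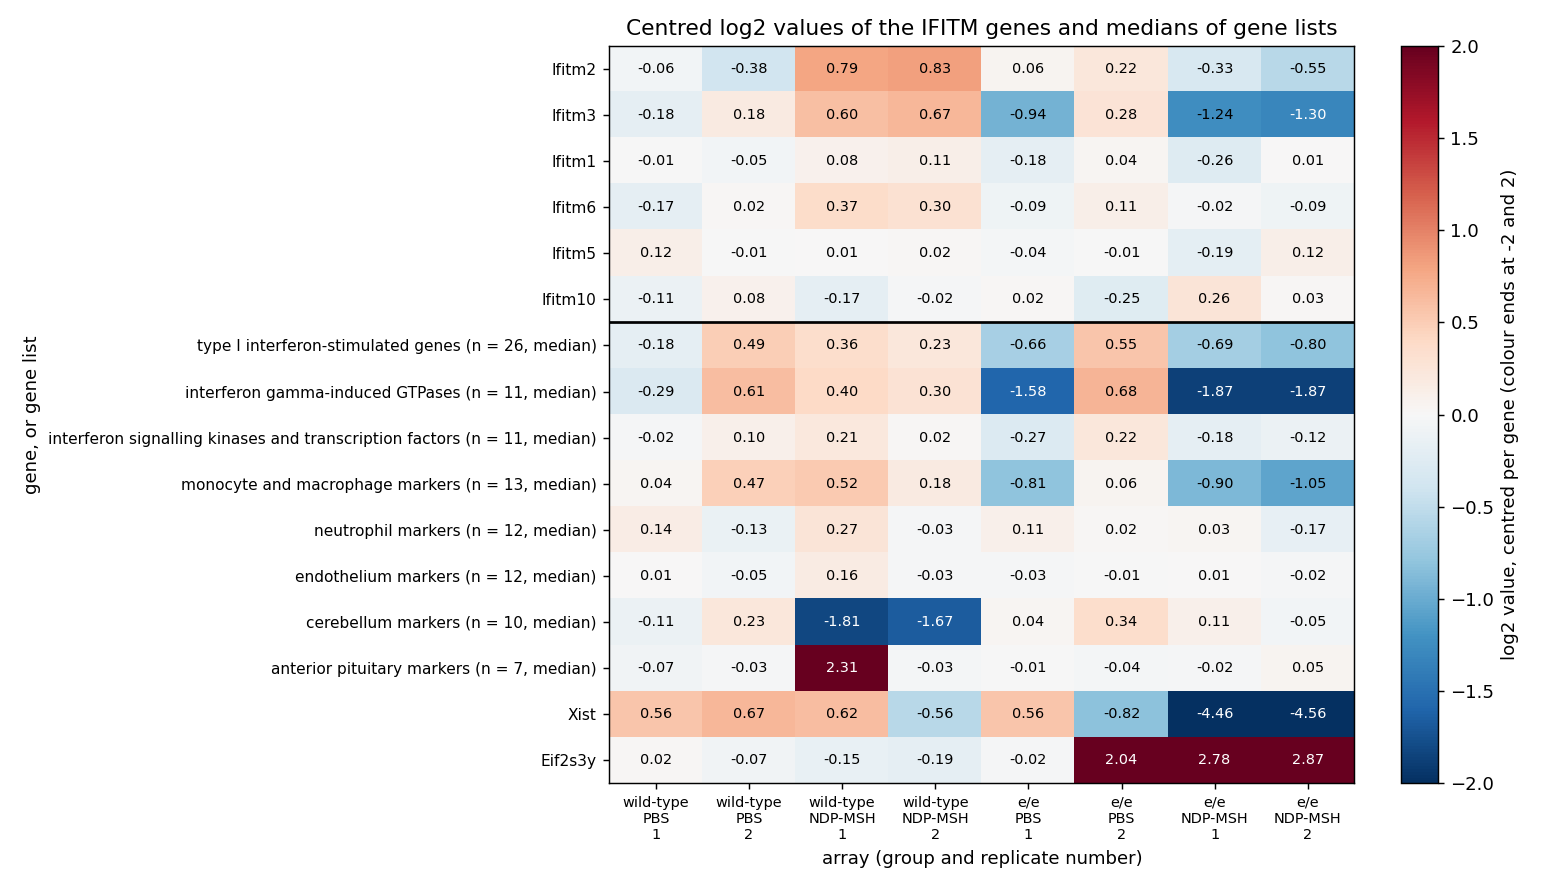
Centred log2 values of the 6 IFITM genes, medians of 8 gene lists, and the sex-linked genes Xist and Eif2s3y (rows) on each of the 8 arrays (columns), with red for high and blue for low values. Ifitm3 and both interferon lists are low in e/e PBS 1 and the e/e NDP-MSH arrays, whereas Ifitm2 stands out in the wild-type NDP-MSH arrays, where cerebellar markers are at -1.81 and -1.67.

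Upstream of these genes, no interferon transcript passed the threshold. Of 8 interferon ligand genes 4 were higher and 4 lower in wild-type mice (median 0.03), and 5 were higher and 3 lower in e/e mice (median 0.03). Interferon gamma (Ifng) differed by less than 0.01 in wild-type (-0.0021) and by -0.11 in e/e mice, and interferon beta (Ifnb1) by 0.11 and 0.06. The 6 receptor genes had medians of -0.01 and -0.07, with Ifnar1 at -0.16 and 0.05, Ifnar2 at -0.04 and -0.21 and Ifngr1 at 0.02 and -0.14 in wild-type and e/e mice.

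Kinases and transcription factors of interferon signalling were mixed in wild-type mice and mostly lower in e/e mice, without a call. In wild-type mice 7 of 11 were higher (median 0.02), and in e/e mice 10 of 11 were lower (median -0.24), with 0 past the threshold in either. Stat2 and Irf9, transcription factors of type I interferon signalling, differed by -0.15 and -0.01 in wild-type mice and by -0.69 and -0.72 in e/e mice. The receptor kinase gene Jak1 differed by 0.02 and -0.05.

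Enzymes and partners that act on IFITM proteins had list medians near 0, with single genes between -0.19 and 0.22 in wild-type mice and between -0.11 and 0.15 in e/e mice. Of 13 such genes 5 were higher in wild-type mice (median -0.02) and 8 in e/e mice (median 0.02), with 0 past the threshold. Zdhhc20, which palmitoylates IFITM proteins, differed by -0.02 and -0.06, the ubiquitin ligase gene Nedd4 by -0.04 and -0.01 and the endoplasmic reticulum tether gene Vapa by 0.15 and 0.03 in wild-type and e/e mice. Of 7 relatives in the wider dispanin family, 2 were higher in wild-type mice (median -0.09) and 4 in e/e mice (median 0.04). Among them Prrt1, a partner of AMPA receptors, differed by 0.18 and -0.08, the presynaptic Prrt2 by -0.09 and 0.09 and the synapse gene Syndig1 by -0.26 and -0.03.

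Genes that flank the chromosome 7 cluster had smaller differences than Ifitm2 and Ifitm3. The 4 nearest measured protein-coding genes on either side are Psmd13, Cox8b, Nlrp6 and Pgghg before it and B4galnt4, Pkp3, Sigirr and Ano9 after it. Their differences lay between -0.08 and 0.11 in wild-type mice (median 0.04) and between -0.15 and 0.19 in e/e mice (median -0.03), and 0 of 8 passed the threshold. Within the cluster, Ifitm1, Ifitm5 and Ifitm6 lay in that range as well in e/e mice. In wild-type mice Ifitm5 lay inside it, Ifitm1 was just above it at 0.12 and Ifitm6 was above it at 0.41. Around Ifitm10 the 8 neighbours lay between -0.38 and 0.10 in wild-type and between -0.41 and 0.17 in e/e mice, with 0 of 8 past the threshold.

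Genes with an ISRE-type match in a promoter window, as Ifitm2 and Ifitm3 have, had medians near those of all genes. Of 657 measured genes with a match, 39.9% had a lower mean under NDP-MSH in wild-type mice (median 0.03), against 44.5% of the 16990 measured genes with a window (median 0.02). In e/e mice 53% were lower (median -0.01), against 45.8% (median 0.01).

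The genes whose pattern over the 8 arrays was most like that of Ifitm2 and of Ifitm3 were different ones. They were taken as the 5 with the highest Pearson correlation, with predicted genes and some symbol families left out. They are given here as a description, since being the highest of so many genes leaves no meaningful p. For Ifitm3 they were the tumour necrosis factor receptor gene Tnfrsf1a (r = 0.997), the DNA-sensing adaptor gene Sting1 (0.992), Herc6 (0.987), Ly6c2 (0.985) and the antiviral synthetase gene Oas3 (0.983). For Ifitm2 they were the endogenous retroviral envelope gene Syna (0.975), the kinesin gene Kif18a (0.972), the actin-binding gene Dbnl (0.963), Zfp995 (0.963) and the zinc transporter gene Slc39a11 (0.962).

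Syna had wild-type values of -0.04 and -0.49 under PBS and 0.40 and 0.49 under NDP-MSH, and e/e values of 0.07 and 0.04 under PBS and -0.32 and -0.59 under NDP-MSH. Like Ifitm2, it was high in wild-type NDP-MSH, low in e/e NDP-MSH and close together in e/e PBS. Its differences were 0.71 in wild-type and -0.51 in e/e mice, neither past the threshold (limma, adjusted p = 0.193 and 1). Tnfrsf1a had e/e values of -0.42 and 0.10 under PBS and -0.48 and -0.55 under NDP-MSH, the arrangement of Ifitm3. Over the same 8 arrays Ifitm2 and Ifitm3 had a correlation of 0.763, which placed Ifitm3 at rank 735 of 22179 genes by likeness to Ifitm2, behind Ifitm6 at rank 296 (r = 0.835). The correlation of Ifitm2 was 0.592 with Ifitm1, 0.036 with Ifitm5 and -0.553 with Ifitm10, and that of Ifitm3 was 0.753, 0.22 and -0.628. All these points share the same 8 arrays and the same centring.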

How the data were processed

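Total brain RNA was hybridised to Affymetrix arrays as biotin-labelled cDNA, per the labels' protocols. The authors deposited log2 values (base 2 assumed) for 33793 probe sets on 8 arrays, and each probe set is centred on its median over the arrays. How background correction and normalization were done before this is not stated in the labels or headers. Of the probe sets, 23521 carry 1 gene symbol in the platform annotation, 1814 with several were not used, and 8458 have no name here. Probe sets of a gene were averaged to 22180 genes, and each of the 6 measured IFITM genes has 1 probe set. Array medians lay between -0.0043 and 0.0142.

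Groups were compared with limma 3.58.1 in R 4.3.3 (lmFit, eBayes, two-sided), in a single fit of 8 arrays with a mean for each group (4 residual degrees of freedom), Benjamini-Hochberg adjustment over all genes and a threshold of 0.05. No filter on low values was used. The procedure was tested on simulated data.

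The members and gene lists were chosen with earlier results of these data known. All measured members are named. Where genes are named as examples of a list, they come from its first 3 with a value. Other lists are given only by counts and medians. The genes most like Ifitm2 and Ifitm3 are the 5 with the highest Pearson correlation among the genes kept for this search. Predicted and Rik genes and numbered olfactory receptor, vomeronasal receptor and small RNA genes were left out. Symbols that open with a capital not followed by a lower-case letter were left out too. Promoter windows came from RefSeq (GRCm38.p6). The number of arrays limits the precision. Alternatives were a replicate block, array weights, quantile normalization, array centring, a fit on 4 arrays, other uses of probe sets, robust moderation and leaving out each array.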

Additional observations from a re-analysis of the deposited data

Results flagged for a closer look

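For Ifitm2 and Ifitm3, both NDP-MSH arrays lay above both PBS arrays in wild-type mice and below both in e/e mice. The difference between the genotypes' effects was 1.60 for Ifitm2 and 1.57 for Ifitm3 on the log2 scale, and by limma neither passed over all genes (adjusted p = 0.136 and 0.532). This arrangement was seen in 3.17% of genes, and for both genes it contains the wild-type arrays for which the family was chosen. The wild-type NDP-MSH arrays also had low cerebellar markers, and the e/e NDP-MSH arrays had low Xist. The part of either in these differences cannot be told apart from that of NDP-MSH.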

How the results depend on the processing

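Of 378 values of the 24 member differences under the alternatives, 352 kept their direction and side of the threshold and 14 reversed, each when 1 array was left out. The Ifitm2 call in wild-type mice (1 member called) was lost, leaving 0, with array weights (adjusted p = 0.0686), quantile normalization (0.110) and only the 4 wild-type arrays (0.109), all by limma, and the count ranged from 0 to 1 over the arrays left out. Deviations of same-numbered arrays correlated between -0.251 (wild-type NDP-MSH with e/e PBS) and 0.443 (wild-type PBS with e/e PBS) across pairs of groups. Each group gives only a single difference between its arrays, so these values cannot decide whether replicate numbers paired the samples. With the replicate number as a block, 0 members were called in wild-type mice (limma, Ifitm2 adjusted p = 0.0749). In e/e mice and in the difference between genotypes 0 members were called under every alternative except without e/e PBS 1, where Ifitm3 was (range 0 to 1 for each). With quantile normalization the e/e difference of Ifitm3 was -0.59.

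Values that reversed ranged, over the arrays left out, from -0.104 to 0.0239 (Ifitm5) and -0.175 to 0.0146 (Ifitm10) in wild-type mice; from -0.186 to 0.0768 (Ifitm1), -0.170 to 0.146 (Ifitm5) and -0.167 to 0.0330 (Ifitm6) in e/e mice; from -0.19 to 0.13 (Ifitm5) for the difference between genotypes; and from -0.149 to 0.0672 (Ifitm1), -0.943 to 0.276 (Ifitm3), -0.0134 to 0.187 (Ifitm6) and -0.232 to 0.0326 (Ifitm10) for genotype under PBS. The cause was not tested. Over all genes, the 39 wild-type calls became 14 with the replicate block, 20 with quantile normalization, 5 with only 4 arrays and 0 to 49 with 1 array left out. In e/e mice 51 genes were called when e/e PBS 1 was left out and 4 when the other PBS array was, against 0 with all arrays.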
